A study of Mus musculus with 6 samples.

Results

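Merging the phospho-Smad2 (pSmad2) ChIP peaks of all 3 lists gave 13017 regions. Of these, 4648 (members in the plots) held peaks of the DMSO list and none of the Activin or SB list. They were chosen by their peak calls: each listed peak position was given a fixed stretch of mm9 sequence, overlapping stretches of the lists were merged, and a region was kept where every stretch in it came from the DMSO list. The rule therefore used the tags of the ChIP and input libraries themselves, so that a higher DMSO than Activin or SB tag number in these regions is a description of the choice and was not tested. Of the 7423 peaks in the DMSO list, 4675 (63.0%) lay in these regions, 4621 of which held 1 peak and 27 of which held 2.

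The libraries were made from the mouse embryonic stem (ES) cell line E14 TG2A. Cells were first held for 6 hours in 10 µM SB-431542, an inhibitor of the type I receptors of Nodal and Activin, in medium with Knockout Serum Replacement and without LIF, a step that every group shared. They were then kept for 18 hours in 25 ng/ml Activin (high signaling), in DMSO at a dilution of 1/5000 (the vehicle control, with the endogenous level of signaling) or in 10 µM SB (low signaling). Chromatin was precipitated with an antibody to Smad2 phosphorylated at its C-terminal serines. For each treatment 1 ChIP library and 1 input library (DNA before precipitation) were sequenced. No difference between treatments therefore has a replicate check, and the intervals below cover counting error only. They count tags as independent molecules, which tags of amplified libraries are not, so they can be too narrow even for counting error. In the DMSO ChIP library 24.6% of tags repeated the position and strand of another. The ChIP libraries held 13148559 (Activin), 12879960 (DMSO) and 9757735 (SB) tags of 35 bp, and the inputs 10516699 to 12708225. Tag numbers given for single regions are not scaled, and the SB ChIP library was the smallest, whereas ratios are per total tags. The files hold DNA tags and no expression, so that the stem cell label was not checked against its markers.

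Nodal and Activin bind pairs of serine/threonine kinase receptors, which phosphorylate Smad2 and Smad3. The phosphorylated proteins join Smad4, enter the nucleus and bind DNA weakly at the short Smad-binding element CAGA, usually beside partner factors such as Foxh1, and the inhibitors Lefty1, Lefty2 and Smad7 are among the targets that feed back on the pathway. In the early embryo graded Nodal signaling patterns the mesendoderm, and in ES cells the pathway acts beside the pluripotency factors.

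The 8 windows below, of 200 bp each, around the highest DMSO pileup, show what kinds of sequence the regions held, with CAGA or its reverse complement TCTG, and CAGAC or GTCTG, in capitals. The first 4 lay in an intron of Ski, at the start site of Smurf2, upstream of Dppa5a and in an intron of Esrrb, in regions that stayed in the DMSO list alone when the stretches were lengthened as described below.
Ski, chr4:154552363-154552562: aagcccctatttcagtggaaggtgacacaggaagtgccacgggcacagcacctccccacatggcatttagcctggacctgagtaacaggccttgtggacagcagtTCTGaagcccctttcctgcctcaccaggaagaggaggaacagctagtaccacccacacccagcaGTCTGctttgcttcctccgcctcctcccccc
Smurf2, chr11:106780982-106781181: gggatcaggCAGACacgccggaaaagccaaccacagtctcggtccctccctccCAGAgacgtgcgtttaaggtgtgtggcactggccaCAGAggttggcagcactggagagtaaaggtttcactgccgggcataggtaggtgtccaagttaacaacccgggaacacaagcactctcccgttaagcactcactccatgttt
Dppa5a, chr9:78217258-78217457: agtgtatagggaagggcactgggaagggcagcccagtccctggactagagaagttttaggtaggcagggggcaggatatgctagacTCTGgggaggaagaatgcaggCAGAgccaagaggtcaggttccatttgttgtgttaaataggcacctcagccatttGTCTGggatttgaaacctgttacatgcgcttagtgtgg
Esrrb, chr12:87822906-87823105: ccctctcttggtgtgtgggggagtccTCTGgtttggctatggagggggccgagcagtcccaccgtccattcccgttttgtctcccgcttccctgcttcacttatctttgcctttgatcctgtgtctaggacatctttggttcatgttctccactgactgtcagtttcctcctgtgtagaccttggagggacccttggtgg
The next 3 lay in regions that the lengthened stretches joined to a peak of another list, upstream of the Oct4 gene Pou5f1, downstream of Smad3 and at the highest listed peak among the DMSO-only regions, in Mid1 by the start site of Gm17379.
Pou5f1, chr17:35641865-35642064: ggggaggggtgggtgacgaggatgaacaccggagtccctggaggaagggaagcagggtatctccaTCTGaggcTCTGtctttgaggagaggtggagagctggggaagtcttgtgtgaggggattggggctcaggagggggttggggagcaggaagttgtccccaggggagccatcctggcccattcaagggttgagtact
Smad3, chr9:63493045-63493244: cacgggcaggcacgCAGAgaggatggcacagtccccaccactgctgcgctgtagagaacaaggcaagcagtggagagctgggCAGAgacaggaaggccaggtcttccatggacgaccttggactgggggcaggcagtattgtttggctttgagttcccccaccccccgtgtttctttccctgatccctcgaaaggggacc
Mid1, chrX:166423820-166424019: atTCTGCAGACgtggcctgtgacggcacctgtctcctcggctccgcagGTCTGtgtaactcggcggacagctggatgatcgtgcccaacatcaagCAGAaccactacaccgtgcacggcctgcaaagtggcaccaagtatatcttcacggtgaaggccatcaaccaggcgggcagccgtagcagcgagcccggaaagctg
The last, by the start site of Gm10800, is from the region with the most input tags, and it held neither motif.
Gm10800, chr2:98507193-98507392: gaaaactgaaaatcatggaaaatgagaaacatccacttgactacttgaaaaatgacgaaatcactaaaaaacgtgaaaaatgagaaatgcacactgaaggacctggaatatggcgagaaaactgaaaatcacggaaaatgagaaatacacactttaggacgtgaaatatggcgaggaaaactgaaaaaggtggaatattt
The windows at Ski, Smurf2 and Dppa5a each held 1 CAGAC, that at Mid1 held 2, and those at Esrrb, Pou5f1 and Smad3 held CAGA only.

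The DMSO-only peaks were small. Their listed tag number had a median of 13 (quartiles 9 and 20, range 8 to 840), against a median of 30 for the DMSO peaks of the 2443 regions that the DMSO list shared with another list. At the edge of the peak list, 733 regions had the lowest listed number of 8 tags, and 48.0% had fewer than 13, against 6.59% of the shared regions. At the edge of the merging rule, the 3 nearest DMSO-only regions touched or came within 5 bp of a stretch of another list without sharing a base, at Ube2s (35 DMSO, 17 Activin and 9 SB ChIP tags), Cbx7 (26, 17 and 12) and 3010026O09Rik (34, 18 and 17). The 3 regions left out by the smallest overlaps, of 2 or 3 bp, were nearest to Rps6ka1 (62 DMSO, 53 Activin and 31 SB tags), Mllt6 (64, 70 and 47) and Zmat3 (25, 33 and 27). DMSO had the most tags in all 3 regions just inside the rule and in 1 of the 3 just outside it. The 3 outside were counted over a DMSO and an Activin stretch together, so their Activin tags include those of a called Activin peak.

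The list label did not hold alike for all of the regions. In 605 of them the listed tag number exceeded the distinct DMSO tags inside the region (1 per position and strand) by more than 1.5 times, so that the fixed stretch covered only a part of the listed peak. When each stretch was lengthened until it held its listed tags, a step chosen after seeing this, 4130 of the 4648 regions stayed in the DMSO list only (here called standalone) and 518 were joined to a peak of another list (here called joined). Listed tags had a median of 12 in the standalone and 31 in the joined regions. Of the 56 regions with at least 100 listed tags, 52 were joined and the other 4 had at least 100 DMSO input tags, so no peak of that size with a lower input was left in the DMSO list alone. The median distance to the nearest stretch of another list was 21.3 kb over all DMSO-only regions and 30.8 kb over the standalone ones.

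A few regions with very high input held most of the tags. In 17 regions (here called high-input) the DMSO input had at least 100 tags, and 3 of them, at Gm10800 (chr2:98507057-98507524), Gm10801 and Gm5614, held 52.4% of all DMSO ChIP tags and 83.1% of all DMSO input tags in the DMSO-only regions. At Gm10800 the DMSO, Activin and SB ChIP libraries had 50969, 59007 and 52963 tags, and the inputs had 71224, 65326 and 69991. Input exceeded ChIP there under every treatment, and Activin exceeded DMSO. Of the 8 regions within 1 kb of a coding start site with the most distinct DMSO tags, 5 were standalone and all 5 were high-input, at Gm10800, Gm10106, Oasl1, Gm10720 and Litaf. The other 3 (Gm10801, the start site of Gm17379 beside Mid1, and Ftl1) were joined. The sums below leave the 17 regions out.

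In the remaining 4631 regions the median was 17 DMSO ChIP tags (quartiles 13 and 22), 8 Activin (4 and 13) and 6 SB (3 and 10), and 4 tags in each input. Scaled to 10M library tags (M, 1e6) these medians were 13.2, 6.08 and 6.15 for the ChIP libraries and 3.15 to 3.803 for the inputs. The DMSO library was the higher by the rule, while the levels under Activin and SB were near each other. No region lacked DMSO tags, whereas 146 had no Activin tag and 244 no SB tag, and each of these zeros allows up to 3 tags. DMSO tags came from both strands, with a median of 7 distinct positions on the plus and 6 on the minus strand, and 2.59% of the regions had fewer than 3 on either one.

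**Figure D1:**
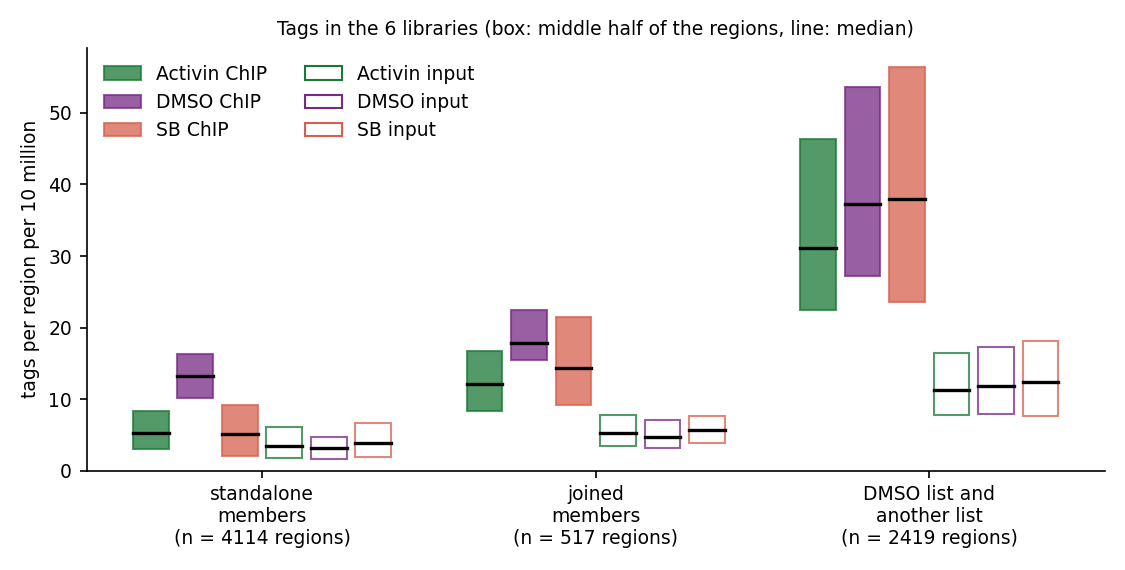
Tags per region per 10M library tags in the 6 libraries for standalone members, joined members and regions of the DMSO list shared with another list; boxes give the quartiles of the regions, lines the median, filled boxes ChIP and open boxes input. In the standalone members the DMSO ChIP median was 13.2 and those of Activin and SB ChIP 5.32 and 5.12, with input medians of 3.15 to 3.803. In the shared regions all 3 ChIP medians stood between 31.2 and 37.9, with input medians of 11.3 to 12.4. Tags were not scaled by region length, and shared regions merge stretches of different lists, so levels are to be read beside the inputs of the same regions.

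Summed over the 4631 regions, the DMSO ChIP library had 2.03 times the Activin tags (95% counting interval 2.01 to 2.05) and 1.76 times the SB tags (1.74 to 1.78) per total tags. In the standalone regions the ratios were 2.18 (2.15 to 2.21) and 1.93 (1.90 to 1.96), and in the joined ones 1.46 (1.43 to 1.503) and 1.16 (1.13 to 1.20). The joined regions were thus much closer to equal in the 3 libraries than the list label says. The median ratio per region, with 0.5 tag added to each count, was 2.25 over Activin and 2.16 over SB for all 4648. DMSO was at least 2-fold over Activin in 57.5% of the regions (background over all 13017 regions 23.7%), at least 2-fold over SB in 54.5% (background 25.1%) and over both in 38.98% (background 14%). These shares restate the rule and nothing is read from them.

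Against their own inputs, the libraries the rule did not call still showed an excess. Over the standalone regions DMSO ChIP was 3.81 times its input (3.75 to 3.87), Activin ChIP 1.47 times (1.44 to 1.49) and SB ChIP 1.49 times (1.47 to 1.52). In the joined regions the 3 values were 3.58, 2.31 and 2.65, and in the shared regions 4.38, 3.84 and 4.40. Either Activin or SB ChIP reached 2-fold over its input in 49.9% of the DMSO-only regions (background 77.3%) and in 46.3% of the standalone ones. The background holds the regions of the Activin and SB lists, which were called over these inputs, so its higher share restates the rule. These shares also rest on few tags per region. Given the summed excess over input, the absence of a region from a list was not an absence of tags. The inputs differed as well, and over the standalone regions the DMSO input was 0.839 times the Activin input (0.823 to 0.856) and 0.756 times the SB input (0.741 to 0.770); the peak calls used each treatment's own input, and the part of this difference in the calls was not tested.

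The shape around the highest DMSO pileup was compared with the flanks 800 to 1000 bp away, with 1 tag per position and strand. In the standalone regions the central 200 bp of DMSO ChIP were 5.28 times as dense as the flanks (5.18 to 5.38), a value that the placement on that pileup raises by itself. Activin ChIP was 1.86 times as dense at the centre (1.81 to 1.90), beside 1.81 in its input (1.76 to 1.85), and SB ChIP 1.88 times (1.83 to 1.93), beside 1.94 in its input (1.89 to 1.99). Both libraries thus rose at the DMSO centre about as much as their inputs. Their excess over input given above was therefore about as large in the flanks as at the centre. In the shared regions the same centres were 3.43 times the flanks in Activin ChIP and 2.96 times in SB ChIP, against 1.77 and 1.90 in their inputs.

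**Figure D2:**
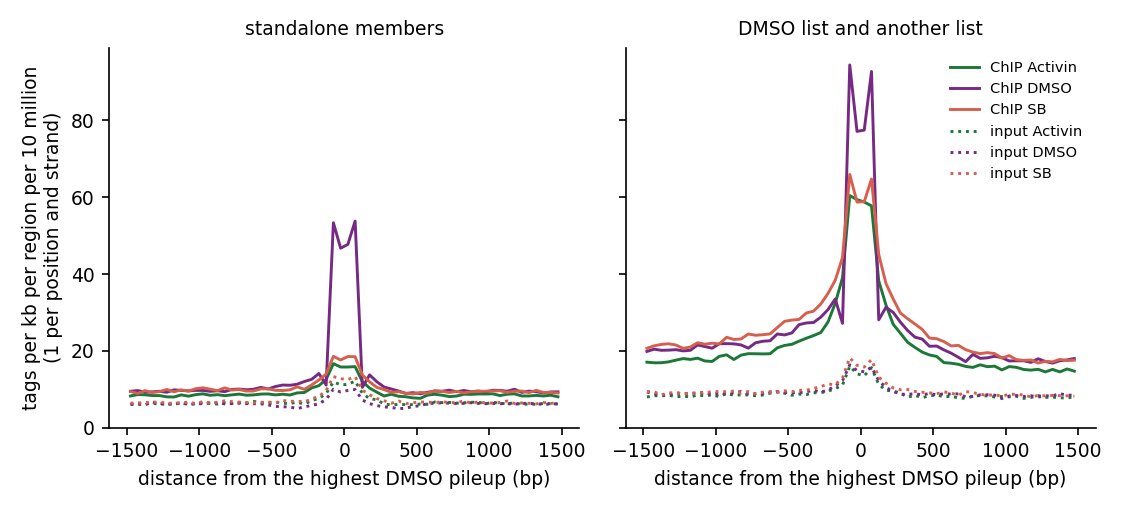
Mean tag density (tags per kb per region per 10M library tags, 1 per position and strand, bins of 50 bp) by distance in bp from the highest DMSO pileup, for standalone members and for regions shared with another list; solid lines are ChIP, dotted lines input. Activin and SB ChIP rise at the centre of the standalone members about as their inputs do, with centre over flank ratios of 1.86 and 1.88, while in the shared regions they reach 3.43 and 2.96; the DMSO line is centred on its own pileup.

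The ratios fell with the listed size of the peak. Among standalone regions of 8 or 9 listed tags (n = 1236) DMSO was 2.99 times Activin (2.90 to 3.09) and 3.08 times SB (2.97 to 3.19), and among those of 20 to 39 (n = 712) it was 1.75 times (1.71 to 1.79) and 1.37 times (1.34 to 1.399). Activin ChIP over its input rose over the same groups from 1.21 to 1.70, and SB ChIP from 1.13 to 1.89, with 1.38 and 1.28 in the 78 regions of 40 or more. The listed tags were part of the choice, so that this trend is a description. Both the share near start sites and the GC content moved with peak size, from 2.99% within 1 kb of a start site and a median GC of 45.5% at 8 or 9 listed tags to 28.7% and 53.5% at 20 to 39.

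**Figure D3:**
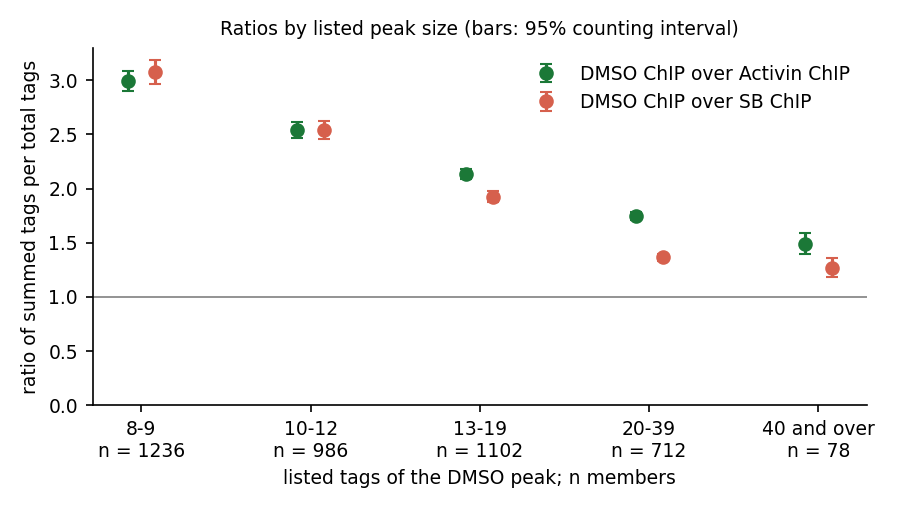
Ratio of summed DMSO ChIP tags to Activin or SB ChIP tags per total tags (vertical axis) for standalone members grouped by the listed tag number of their DMSO peak (horizontal axis), with 95% counting intervals. The ratios go from 2.99 and 3.08 in the smallest peaks to 1.49 and 1.27 in the 78 largest.

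GC content moved with the comparison with SB more than with that with Activin. In DMSO-only regions of 30 to 40% GC the DMSO to SB ratio was 2.57 and in those of 60 to 70% GC it was 1.17, while the DMSO to Activin ratio went from 2.47 to 1.65. Outside all merged regions, where no peak was called, the DMSO to SB ratio went from 1.25 in windows of 30 to 32.5% GC to 0.659 in windows of 60 to 62.5% GC, while the DMSO to Activin ratio stayed between 0.961 and 1.12 over these windows. In windows of 72.5 to 75% GC the DMSO to SB ratio was 0.456 and the DMSO to Activin ratio 1.55. The SB library thus held relatively more GC-rich DNA than the DMSO library outside the peaks too. Its part in the list membership of GC-rich regions was not tested.

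At Lefty1, which encodes a secreted Nodal inhibitor and is a known direct target of the pathway, the order of the libraries was another. An exonic region had 60 Activin, 19 DMSO and 7 SB ChIP tags and 2 to 8 input tags, a DMSO to Activin ratio of 0.323 (0.182 to 0.549), and another had 75, 39 and 6 ChIP tags and 2 or 3 input tags, a ratio of 0.531 (0.351 to 0.792). The tags at both fell in the order Activin, DMSO, SB, with the whole counting interval of the ratio to Activin under 1. Both regions were joined, their listed DMSO peaks (225 and 69 tags) exceeding what the fixed stretch held, and the nearest stretch of another list lay 1.56 and 2.93 kb away. They were found after their values were seen, and 4631 intervals were searched.

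With the whole counting interval of the DMSO to SB ratio under 1, SB was above DMSO in 36 regions (0.777%, beside 13.8% of all merged regions), 25 of them joined. The region with the most tags, by the start site of Taco1, had 1019 SB, 532 DMSO and 335 Activin tags and 11 to 33 input tags. These were stacks of identical tags, for the distinct positions numbered 31, 31 and 18. SB and DMSO thus had equal counts of distinct tags, from totals of 7805150 and 9713869. Per distinct total SB stayed above DMSO there, by much less than with all tags. The others included Hnrpdl (55 SB, 23 DMSO, 10 Activin tags), Rpl7l1, which encodes a ribosomal protein-like factor (65, 37 and 29), the glucose transporter gene Slc2a1 (67, 43 and 30), the tubulin gene Tubb5 (41, 26 and 17). A region 9.94 kb from the amino acid transporter gene Slc1a5 (70, 41 and 31 tags) was a stack as well, with 9, 14 and 9 distinct positions, which put DMSO above SB. Of the 36 regions, 9 kept the interval under 1 with distinct tags. Over all 4631 regions DMSO ranked first in 2012 with Activin before SB and in 2073 with SB before Activin. Where DMSO came first, which the rule favors, the remaining libraries followed in either order about equally often. SB ranked first in 357 regions with DMSO next and in 46 with Activin next. Activin did so in 118 with DMSO next and in 25 with SB next. Summed over the 4631 regions, Activin ChIP was 0.866 times SB ChIP per total tags (0.854 to 0.878).

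Among the 34 genes of the Nodal/Activin pathway list, 9 (26.5%, beside 18.0% of all coding genes) had 19 DMSO-only regions within 10 kb, 10 of them standalone. Shared regions lay within 10 kb of 38.2% of these 34 genes, beside 11.4% of all coding genes. The median DMSO to Activin ratio of the 19 DMSO-only regions was 1.42 and their median DMSO to SB ratio 2.15, below and near the medians of all the regions. At Nodal, the gene of the ligand, an exonic joined region had 34 DMSO, 33 Activin and 12 SB tags, and a standalone one 22, 28 and 20. Per total tags the DMSO to SB ratio was 2.15 in the joined (1.08 to 4.55) and 0.833 in the standalone one (0.434 to 1.61). At Ski, which encodes a co-repressor of Smads, the standalone region of most distinct tags (its window printed above) had 31, 23 and 11 tags, a ratio of 1.38 to Activin (0.777 to 2.47) and 2.14 to SB (1.04 to 4.71). The related Skil had 3 regions, all standalone, of 14 to 20 DMSO tags, and at Smurf2, which encodes a ubiquitin ligase of the pathway, the start site region had 33, 19 and 12 tags. At Nodal, Smurf2 and all 3 regions of Ski the interval over Activin held 1. The interval over SB began above 1 at Smurf2, the 3 regions of Ski and the joined region of Nodal. It held 1 at the standalone region of Nodal. Of the 3 regions of Skil, 1 had an interval over Activin that began above 1 (20 against 7 tags, ratio 2.92, 1.19 to 8.16). Its distinct tags were 14 against 7, and the rule had used these libraries. The joined region near Tdgf1, which encodes the Nodal co-receptor Cripto, had 16 DMSO, 3 Activin and 5 SB tags, and of the standalone ones those with fewer than 2 SB tags were an intronic one in Smad3 (18, 2 and 1) and one downstream of Lefty1 at the start site of Tmem63a (22, 13 and 0).

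The BMP list (22 genes) had 6 regions within 10 kb of 6 genes (27.3%, beside 18.0% of all coding genes), all standalone and small, with 9 to 20 DMSO tags. Shared regions lay as near to 9.09% of its genes, beside 11.4%. BMP ligands signal through Smad1, Smad5 and Smad8 to genes such as those of the Id family. Upstream of Id3 there were 17 DMSO, 3 Activin and 2 SB tags, a ratio of 5.79 to Activin (1.67 to 30.8), and within 10 kb of Bmp4 14, 2 and 4. At Bambi, which encodes a decoy receptor, DMSO and Activin had 20 tags each and SB 7. Regions at the receptor genes Acvr1, Bmpr1a and Bmpr1b had 15, 11 and 9 DMSO tags. DMSO was at least 2-fold over SB at all 6, beside 54.5% of all DMSO-only regions and 25.1% of all merged regions, and at least 2-fold over Activin at 3, beside 57.5% and 23.7%. Over SB the counting interval began above 1 at Id3 alone of the 6.

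At pluripotency genes, 14 of 35 (40%, beside 18.0% of all coding genes) had 30 DMSO-only regions within 10 kb, 21 of them standalone. Standalone regions lay that near to 25.7% of these genes, beside 16.03% of all coding genes. Shared regions did so for 48.6%, beside 11.4%. Upstream of Pou5f1, the gene of Oct4, a joined region had 27 DMSO, 17 Activin and 8 SB tags, and a joined region at its start site had 19, 22 and 12. Upstream of Dppa5a, a gene of undifferentiated cells, the standalone region had 27, 22 and 6 tags, with a ratio of 1.25 to Activin (0.687 to 2.31) and 3.41 to SB (1.38 to 10.1). The other regions of most distinct tags were joined ones at the transcription factor genes Klf2 (31 DMSO, 22 Activin, 21 SB) and Zfp42, that of Rex1 (28, 12 and 9). The intronic region of Esrrb whose window is printed above had 29, 21 and 12. Jarid2, which encodes a subunit of Polycomb repressive complex 2, held 11 of the 30. Its 10 standalone regions summed to 72 Activin and 62 SB tags, with 44 to 53 in the inputs, and DMSO stood over them at ratios of 2.82 (2.15 to 3.75) and 2.43 (1.82 to 3.29).

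Regions at mesendoderm genes included 1 within 10 kb of Tbx6 at the start site of Ppp4c (25 DMSO, 12 Activin, 14 SB tags) and 1 standalone region within 10 kb of Lhx1 at the start site of Aatf (17, 13 and 10). The trophectoderm list had 8 regions at 2 of its 19 annotated genes (10.5%). Of these regions 7 lay inside Fgfr2, whose annotated model spans 3009069 bp and takes in other genes with nearer start sites, such as Ctbp2 and Bub3. The remaining 1, in an intron of Ets2, had 13, 1 and 0 tags. At the genes of FGF/ERK signaling, 8 of 28 annotated genes (28.6%) had 21 regions, and 7 of these were again those inside Fgfr2. Others lay at the feedback inhibitor genes Spry4 (39, 40 and 22 tags in the largest), Spry2 (25, 12 and 12) and Spred2 (25, 7 and 0 upstream of it). Over the 6 lists, 40 of 160 genes (25.0%) had a DMSO-only region within 10 kb and 30 (18.8%) had a standalone one, beside 18.0% and 16.03% of all 22350 protein-coding genes. A shared region lay within 10 kb of 24.4% of the 160 genes, beside 11.4% of all coding genes. The lists were chosen with earlier results of these data known, and the shares are descriptions.

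At ribosomal protein and histone genes few of the regions were standalone. Of 144 ribosomal protein genes, 45 (31.3%) had a DMSO-only region within 1 kb but 11 (7.64%) had a standalone one, beside 12.3% and 11.1% of all coding genes. None of the 67 replication-dependent histone genes had a standalone region within 1 kb. A region that the DMSO list shared with another lay within 1 kb of 60 of them (89.6%), beside 7.60% of all coding genes. Among regions with DMSO ChIP at least 2-fold over its input, the 12 of highest listed tags were all joined, with 249 to 840 listed tags against 16 to 192 tags in the stretch, in Mid1, Hsp90ab1, Aldoa, Slc2a1, Zmynd8, Ier2, Pkm2 and Eno1 and, in 1 case, 249 kb from its nearest gene Enc1. Slc2a1 encodes a glucose transporter, and Aldoa, Pkm2 and Eno1 encode enzymes of glycolysis. At Aldoa the stretch held 40 DMSO, 14 Activin and 29 SB tags, and at Eno1 32, 29 and 16. Per total tags the DMSO to SB ratio was 1.045 at Aldoa (0.632 to 1.75) and 1.515 at Eno1 (0.807 to 2.96). The zinc finger genes named Zfp had standalone regions within 10 kb at 77 of 371 (20.8%, beside 16.03% of all coding genes), the 40 Hox genes at 0, and the 1113 olfactory receptor genes at 8.

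Some genes carried many standalone regions. Within 10 kb of Cbx7, which encodes a Polycomb protein, there were 11, of Dhx9, which encodes an RNA helicase, 11, of Rbpms 10, of Exoc4 9 and of Kdm5b, which encodes a histone demethylase, 8; these genes were chosen after their values were seen. The 11 at Cbx7, a gene of 55.3 kb, had 12 to 32 listed tags and summed to 244 DMSO, 132 Activin and 92 SB tags, ratios of 1.89 (1.52 to 2.35) and 2.01 (1.58 to 2.58). The 11 at Dhx9 had 8 to 16 listed tags and summed to 193, 85 and 70. At Rbpms the sums were 240, 84 and 78 and at Exoc4 96, 30 and 35. In all, 4012 genes had a DMSO-only region that was not high-input within 10 kb. Of these genes 2889 had 1 region and 386 had 3 or more. A shared region also lay within 10 kb of 30.8% of them, beside 11.4% of all coding genes.

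In 981 of the 4114 standalone regions that were not high-input (23.85%) the counting intervals of both ratios lay above 1, beside 8.35% of all 13017 merged regions, a difference that the rule itself makes. With 1 tag per position and strand, a count added after seeing the data, 475 of the 981 (48.4%) did so. Their peaks were small, with a median of 11 listed tags and medians of 17 DMSO, 4 Activin and 2 SB ChIP tags. Introns held 53.1% of them, and 5.51% had a start site no more than 1 kb away. The clearest were chosen by those intervals after their values were seen. The region 1.16 kb from Usp19 had 27 DMSO, 1 Activin and 0 SB tags and 3 to 7 input tags, an intronic one in Sdk1 had 18, 0 and 0 with 3 to 10 in the inputs, and an intronic one in Ttc7b 19, 1 and 0 with 3 to 9. Their distinct DMSO tags numbered 16, 11 and 13. These regions had fewer Activin and SB ChIP tags than input tags.

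DMSO-only regions lay mainly inside genes. By the highest DMSO pileup, 2100 (45.2%) were in introns, 514 (11.1%) in exons, 614 (13.2%, exact 95% interval 12.3 to 14.2) within 1 kb of the start site of a coding transcript and 1420 (30.6%) outside genes. The median distance to a start site was 11.5 kb. The shared regions were nearer, with 24.9% within 1 kb (difference -11.7 percentage points, Newcombe 95% interval -13.7 to -9.77) and 24.2% in introns (21.0 points fewer, 18.7 to 23.2). Compared with the regions in 1 list only, the share within 1 kb was close to that of the Activin list (13.6%, difference -0.368 points, -1.96 to 1.19) and lower than that of the SB list (27.1%, difference -13.9 points, -15.8 to -12.0). Of positions every 50 kb along the genome, 2.32% were that near to a start site and 35.1% were intronic. Start site regions of the DMSO list had a median GC of 57.5% and a DMSO to SB ratio of 1.20 (1.16 to 1.23), and those in introns 47.5% and 2.14 (2.10 to 2.18).

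**Figure D4:**
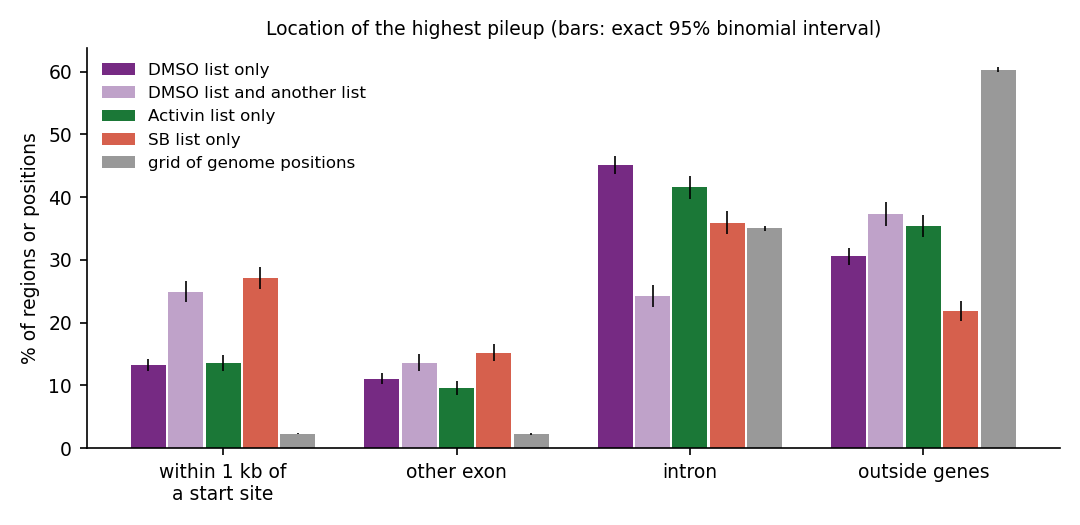
Percent of regions, or of positions every 50 kb along the genome, by location of the highest pileup (within 1 kb of a coding start site, other exon, intron, outside genes), with exact 95% binomial intervals. The DMSO-only regions have 13.2% at start sites and 45.2% in introns, the shared regions 24.9% and 24.2%.

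The Smad-binding sequence CAGAC was no more frequent than in the other lists. Searched as CAGAC and GTCTG, it was in 42.8% of the 200 bp windows (41.4 to 44.3), against 46.1% in the shared regions (difference -3.26 points, -5.69 to -0.823), 46.6% in the Activin-only regions (-3.80 points, -6.10 to -1.51), 43.6% in the SB-only regions (-0.762 points, -3.11 to 1.58) and 33.1% of the genome positions. Part of the distance to the genome positions moved with GC: at 45 to 50% GC the share was 43.8% in the DMSO-only regions and 39.96% in the genome positions. The shared regions, with a median GC of 52% against 48.5%, had 46.8% in this step. At 55 to 60% GC they had 48.9% against 50.6% in the DMSO-only regions. The exact intervals of both overlapped in every GC step from 30 to 70%. For the other motifs named here no such comparison by GC was made. The shorter CAGA or TCTG, which every CAGAC match contains, was in 93.1% of windows and 91.0% of the genome positions. The palindrome GTCTAGAC, in which AGAC units face each other, was in 20 windows (0.430%) against 0.942% of shared regions and 0.166% of genome positions. The Foxh1 motif AATNCACA was in 5.42%, less often than in the shared (8.31%, difference -2.89 points, -4.20 to -1.65) and the Activin-only regions (7.60%, -2.18 points, -3.37 to -1.05), beside 4.70% of genome positions and 2.48% of SB-only regions. The GC box GGGCGG was in 5.62% against 10.9% of shared regions, and the octamer ATTTGCAT in 0.818% against 1.47%, with 1.73% of genome positions. Both strands were searched for all motifs, and a match is a description of the sequence only.

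The regions were unevenly spread over the chromosomes. Chromosome 11 had 407 regions (3.34 per Mb), chromosome 8 had 364 (2.76 per Mb) and chromosome X had 91 (0.546 per Mb). The DMSO input had 1.402, 1.49 and 0.325 times the autosome median of tags per Mb on these chromosomes, the Activin input 1.39, 1.49 and 0.328 and the SB input 1.43, 1.503 and 0.316. Input depth on these chromosomes was thus alike in the 3 treatments, and it was high on 11 and 8 and low on X, as the number of regions was. Chromosome 2, at 1.26 times the median DMSO input, had 0.993 times the median of regions per Mb. Coding genes per Mb differed as well, at 13.6, 8.21 and 5.59 on chromosomes 11, 8 and X. The part of input depth and of gene density in the number of regions was not tested. The share of all merged regions of a chromosome that were DMSO-only was 37.2% on chromosome 8, 34.1% on both 11 and X, and 32.0% to 42.5% over all chromosomes.

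**Figure D5:**
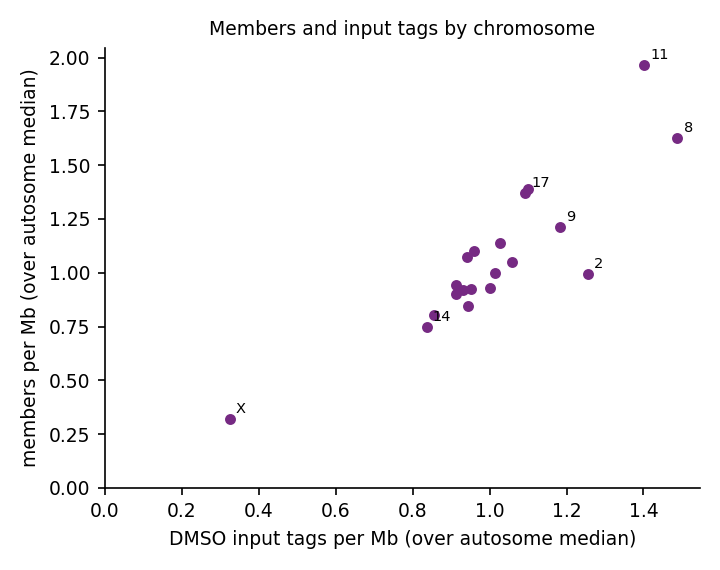
DMSO-only regions per Mb (vertical axis) against DMSO input tags per Mb (horizontal axis), each over the median of the autosomes, 1 point per chromosome. Chromosomes 8 and 11 stand at 1.49 and 1.402 times the median input and chromosome X at 0.325; chromosome 2 holds the high-input regions at Gm10800 and Gm10801.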

How the data were processed

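Libraries of pSmad2 ChIP and input DNA were sequenced by the authors as tags of 35 bp and deposited as positions on mm9 (the aligner is not given in the sources used here), with tags of the same position and strand kept. The authors called peaks with MACS (p-value cutoff 1e-05, tags extended to 200 bp) in each ChIP library against the input of its treatment, and each deposited list names a peak by a single position and its counts of tags, with no start and end. Positions were widened to 416 bp on both sides (Activin), 467 bp before (DMSO) or 1109 bp before (SB) and merged at an overlap of 1 bp. Tags were counted by fragment middle (5′ end shifted by 100 bp) and scaled by library totals; ratios have exact (Clopper-Pearson) 95% intervals and differences of shares Newcombe 95% intervals, which cover counting error only. GENCODE genes on NCBIM37, which is mm9, gave locations. No test across regions was made since each treatment had 1 library. The members, motifs and gene lists were chosen with earlier results of these data known. Named regions were the 12 of highest listed tags with DMSO ChIP at least 2-fold over input, the 8 start site regions of most distinct tags, those within 10 kb of genes of the Nodal/Activin, pluripotency, mesendoderm and trophectoderm lists, the 3 of most input tags and 3 on either side of the edge of the rule, each named by its nearest coding gene. Regions at BMP and FGF/ERK genes, those with Activin or SB above DMSO, those with the clearest DMSO excess and the genes with many regions were named after their values were seen. The lists held 162 genes, of which 160 were annotated. At most 8 windows were printed. Alternatives were other interval widths, tag limits, scalings, windows and distances; lengthening each stretch, by up to 10 kb, until it held its listed tags was chosen after seeing the data. Merging, counting and intervals were tested on simulated data. Python 3.11.15 with numpy 2.4.6, pandas 2.3.3 and scipy 1.17.1 was used. One gene of the lists is not reported here.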

Additional observations from a re-analysis of the deposited data

How the results depend on the processing

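With peaks of at least 13 listed tags alone, 2443 DMSO-only regions were left, and the number was within 1.5 times under other widths (3619 to 5356), a minimum overlap of 100 bp (4809) and lengthened stretches (4106). The sums over all 4648 regions, high-input ones included, gave ratios of 1.19 over Activin and 1.03 over SB. These were 2.03 and 1.73 with 1 tag per position and strand, 2.03 and 1.76 without the 17 high-input regions, 1.20 and 1.01 scaled by tags outside regions, and 1.29 and 1.10 in standalone regions. GC scaling turned the sum over SB to 0.922, while the median ratio over SB was 2.22; the cause was not tested. The median ratio over Activin was 2.38 in standalone regions, and that over SB 2.04 with 1 tag per position and strand. At least 1.5-fold over Activin and SB were 78.03% and 71.3%, at least 3-fold 33.9% and 32.3%, at least 2-fold in standalone regions 61.5% and 58.7%, and over SB with 1 tag per position and strand 50.6%. Any overlap with 1 kb around a start site gave 14.9%, and start sites of all transcripts 19.3%. CAGAC was in 36.9% of windows at the listed position, 24.7% of 100 bp and 64.9% of 400 bp windows. Median GC was 45.5% at the listed position and 46.8% over the interval. Within 50 kb, 65 list genes had a region. The other 23 of 50 alternatives moved no value beyond its interval and no count beyond 1.5 times. No paired analysis was possible because each treatment had 1 library. Depth limits single regions: at a median of 17 DMSO tags, 981 of 4114 standalone regions had both intervals above 1, and 475 of these did with 1 tag per position and strand. Values for standalone regions were added after seeing the data.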
